A study of Mus musculus with 8 samples.

Results

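The T and B lymphocyte genes were 31 markers of T cells, B cells and cytotoxic lymphocytes, followed in inguinal white adipose tissue, which lies under the skin of the groin. A member was measured where the array annotation paired a probe set (a group of short probes for one transcript) with that gene alone, and its brightest probe set over the arrays stood for it. This held for 29 members among 18193 genes: 16 T cell genes, 10 B cell genes and 3 others, namely Ltb, Nkg7 and Gzma. Lck, a kinase that starts T cell receptor signalling, and Tcf7, a transcription factor of naive T cells, had no single-gene probe set in the annotation and were not analysed here. The arrays came from 4 male mice lacking lysophosphatidic acid receptor 4 (Lpar4 -/Y, called KO) and 4 male wild-type littermates (WT). All mice were C57BL/6, 12 weeks old and fed standard chow, and how the mutant allele was made is not given in the sources used here. Each mouse gave 1 array, and the replicates are numbered 1 to 4 in each genotype. Levels are deposited log2 signals, and each difference is the KO mean minus the WT mean, so that 1 unit is a doubling of signal.

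T cells read antigen through a receptor whose signal is carried inward by the CD3 chains, with CD4 or CD8 as co-receptor, and B cells do the same through surface immunoglobulin and the CD79 chains. Both kinds recirculate through lymph nodes, which they enter at high endothelial venules and where the chemokine receptors CCR7 and CXCR5 guide T cells and B cells to separate zones. Fat holds resident T cells, some B cells and natural killer cells in its stroma. The inguinal depot also surrounds the inguinal lymph node, so a sample of the depot may contain lymphoid tissue, and the labels do not say whether the node was removed. In whole tissue, fewer cells of a type and less RNA per cell cannot be told apart.

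The promoter windows of the members that varied between arrays, with that of Cd79a as a B cell gene that did not, are shown to locate these genes and the motifs found in them. The sequences are RefSeq windows of GRCm38.p6, from 250 bases before to 50 bases after an annotated start, and 21 members had at least one. Cd2, which also varied, had none, and Bank1 is left out for length. Capitals mark matches on either strand to the Runx core TGTGGT, the Ets core AGGAAG or the E-box CAGGTG; the octamer ATTTGCAT, a motif of immunoglobulin promoters, was searched as well. No matches overlapped in any member window.
Cd3g, chr9:44980382-44980681, minus strand: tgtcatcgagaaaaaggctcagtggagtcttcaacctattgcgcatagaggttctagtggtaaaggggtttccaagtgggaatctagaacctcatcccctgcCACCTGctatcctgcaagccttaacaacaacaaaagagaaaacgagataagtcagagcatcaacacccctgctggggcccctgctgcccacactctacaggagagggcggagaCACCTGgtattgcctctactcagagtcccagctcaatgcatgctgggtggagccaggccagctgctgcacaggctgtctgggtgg
Cd3d, chr9:44981536-44981835, plus strand: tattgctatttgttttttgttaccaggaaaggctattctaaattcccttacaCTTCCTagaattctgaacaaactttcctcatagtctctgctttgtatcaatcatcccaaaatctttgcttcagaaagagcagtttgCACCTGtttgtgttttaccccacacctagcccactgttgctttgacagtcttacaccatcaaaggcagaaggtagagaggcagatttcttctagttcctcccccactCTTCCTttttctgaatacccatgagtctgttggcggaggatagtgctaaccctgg
Il7r, chr15:9529827-9530126, minus strand: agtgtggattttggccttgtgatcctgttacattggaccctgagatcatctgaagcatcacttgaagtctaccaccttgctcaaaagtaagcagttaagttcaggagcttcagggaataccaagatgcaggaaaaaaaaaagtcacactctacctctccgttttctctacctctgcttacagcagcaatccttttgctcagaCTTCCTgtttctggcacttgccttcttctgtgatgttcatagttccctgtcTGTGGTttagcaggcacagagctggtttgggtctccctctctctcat
Nkg7, chr7:43436888-43437187, plus strand: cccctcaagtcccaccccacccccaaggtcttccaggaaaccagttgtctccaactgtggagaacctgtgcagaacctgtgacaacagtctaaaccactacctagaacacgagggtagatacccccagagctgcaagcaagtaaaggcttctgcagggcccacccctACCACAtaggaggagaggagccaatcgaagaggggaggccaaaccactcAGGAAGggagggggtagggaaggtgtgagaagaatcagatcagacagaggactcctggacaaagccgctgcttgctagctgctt
Gzma, chr13:113100932-113101231, minus strand: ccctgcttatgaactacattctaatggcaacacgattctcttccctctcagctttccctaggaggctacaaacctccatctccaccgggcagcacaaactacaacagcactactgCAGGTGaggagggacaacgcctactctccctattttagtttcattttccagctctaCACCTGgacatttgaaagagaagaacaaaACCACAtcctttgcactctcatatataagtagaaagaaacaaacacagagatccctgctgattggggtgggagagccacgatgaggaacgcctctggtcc
Cd79a, chr7:24897247-24897546, plus strand: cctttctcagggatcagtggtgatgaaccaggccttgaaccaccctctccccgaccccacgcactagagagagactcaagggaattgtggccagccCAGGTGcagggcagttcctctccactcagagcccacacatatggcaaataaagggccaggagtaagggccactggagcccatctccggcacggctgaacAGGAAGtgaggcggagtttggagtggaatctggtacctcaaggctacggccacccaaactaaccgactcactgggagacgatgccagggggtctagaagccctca

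Cd3g and Cd3d lie head to head on chromosome 9, with annotated starts 1355 bases apart. CAGGTG was found in 17 of 30 member windows (56.7%), against 20.2% of 32851 windows of all genes. AGGAAG was found in 16 member windows (53.3%, against 35.4% of all windows) and TGTGGT in 7 (23.3%, against 16.8%). ATTTGCAT was found in 0 member windows, against 1.74% of all windows. Windows of one gene can share bases, and a match is a description of letters, not a binding site.

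Most members gave almost the same value on every array. For 22 of 29 the 8 values had an SD below 0.01, called near constant here, and the largest SD among these 22 was 0.00055. Only 7 members varied, or 24.1%, against 28.4% of all genes and 15.2% of the 11721 genes within the members' range of levels. The varying members were the T cell genes Cd3d, Cd3g, Cd2 and Il7r, the B cell gene Bank1, and the cytotoxic genes Nkg7 and Gzma. Near-constant values were a property of the deposited table, in which 78.7% of probe sets were near constant, so for these 22 members a difference between the genotypes was not detectable. Mean member levels ran from 6.04 (Cxcr5) to 8.21 (Zap70), at percentiles 11.2 to 81.6 of all probe sets, and detection above background was not analysed here.

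**Figure D1:**
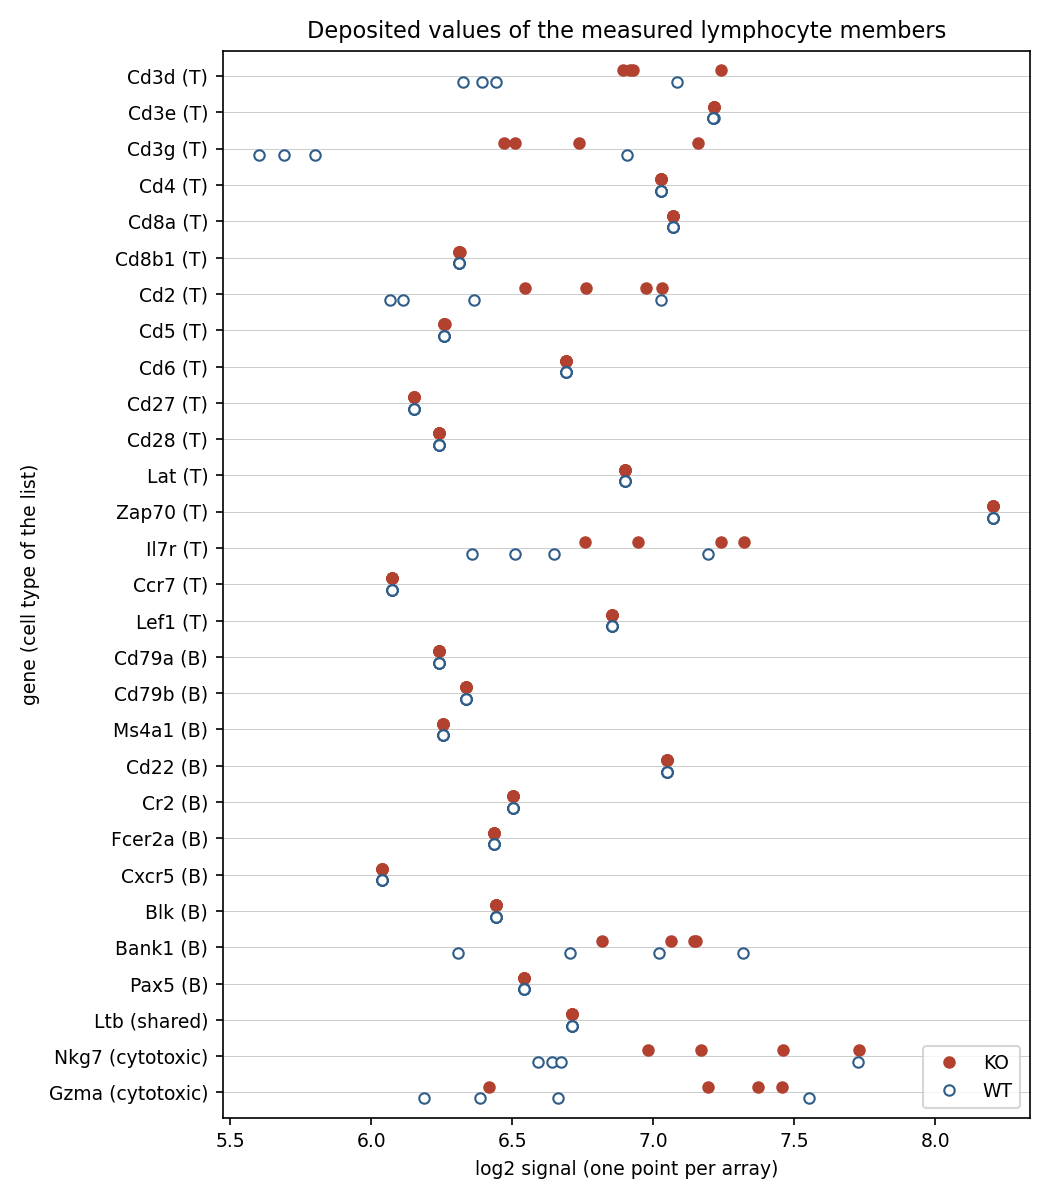
Deposited log2 signal (horizontal axis) of each measured member (rows, with its cell type), one point per array, KO filled and WT open. The 7 varying members spread along the axis, by 0.91 to 1.55 from lowest to highest array, whereas the 22 near-constant members collapse onto single points.

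Array medians ran from 6.73 to 6.74, which near-constant values largely fix. Adiponectin (Adipoq), an adipocyte hormone, was at 13.9 in KO and 13.7 in WT, near the top of all probe sets. It was not level between the genotypes: its difference of 0.25 passed limma over all genes (adjusted p = 0.0486), where 4.03% of genes passed. The targeted gene had 3 probe sets that did not move alike. One Lpar4 probe set was at 5.74, 5.91, 5.81 and 5.78 in KO 1 to 4, against 6.80, 6.98, 6.89 and 7.04 in WT 1 to 4 (limma adjusted p = 0.0104 over probe sets). The means of the others were 7.39 in KO and 6.68 in WT (0.144), and 7.65 in KO and 7.12 in WT (0.128). Where these probe sets lie relative to the deletion is not known here. One array stood apart in the lymphocyte genes, though not in them alone. WT 1 was the highest WT array in all 7 varying members, against 26.6% of varying genes, and was above the KO mean in all 7. Among the varying genes of other lists, it was the highest WT array in 12 of 12 macrophage and 9 of 10 pan-leukocyte genes. The same held for 5 of 5 MHC class II, 8 of 8 skeletal muscle and 0 of 6 adipocyte genes. Results are therefore given with and without WT 1.

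No member passed the comparison of KO with WT. Of the 29 measured members 0 had an adjusted p under 0.05 in limma, fitted and adjusted over all genes, where 4.03% of genes passed (2.39% higher, 1.64% lower in KO). At an unadjusted p under 0.05 there were 3 members, Cd3e, Cd5 and Cd6, against 22.9% of all genes, and all 3 were near constant. A fit without variance moderation also passed 0 members and gave 3 at an unadjusted p under 0.05. When only varying genes were tested, 27.1% of them passed (14.9% higher in KO) and 0 of the 7 varying members did, without and with the replicate number as a block (19.5% of varying genes passed with it). All 7 varying members had higher means in KO, with differences from 0.21 to 0.72 and a median of 0.43, where the median over all varying genes was 0.01. The genotypes overlapped in each of the 7, whereas they did not overlap in 33.2% of varying genes, with KO the higher in 18.2%. A gene can count as varying because its genotypes differ, so the counts among varying genes are descriptions.

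Among the CD3 chains, which carry the T cell receptor signal, Cd3g spanned the widest range of the members. Cd3g was at 6.74, 6.51, 6.47 and 7.16 in KO 1 to 4, against 6.91, 5.80, 5.69 and 5.60 in WT 1 to 4. WT 2 to 4 lay below every KO array, while WT 1 lay above 3 of them. The difference was 0.72 ± 0.33 (SE, n = 4 against 4; limma adjusted p = 0.267). Its neighbour Cd3d was at 6.92, 6.89, 6.93 and 7.24 in KO 1 to 4, against 7.08, 6.33, 6.44 and 6.39 in WT 1 to 4. The same 3 WT arrays were lowest, and only KO 4 exceeded WT 1. The difference was 0.43 ± 0.19 (limma adjusted p = 0.240). The mean of Cd3g in WT, 6.00, stood at percentile 9.62 of all probe sets, among the dimmest values, so the size of its difference is not exact. The third chain, Cd3e, was near constant at 7.21 in both genotypes, although every KO array lay above every WT array by the fourth decimal (difference 0.00042, limma adjusted p = 0.0604, exact permutation p = 0.0286, the smallest this design allows).

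The co-receptors gave no information on the balance of helper and killer T cells. Cd4, the helper co-receptor, was near constant at 7.03, and Cd8a and Cd8b1, the chains of the killer co-receptor, at 7.07 and 6.31. The other probe sets of these genes, 1 for Cd4 and 4 for Cd8a, were near constant as well.

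Of the adhesion and co-stimulation receptors only Cd2, which binds CD48 in mice, varied. Cd2 was at 6.98, 6.55, 6.76 and 7.03 in KO 1 to 4, against 7.03, 6.11, 6.07 and 6.36 in WT 1 to 4. KO 4 and WT 1 were the highest arrays and nearly equal, and WT 2 to 4 were below all KO arrays. The difference was 0.43 ± 0.24 (limma adjusted p = 0.346; 0.0811 among varying genes with the replicate block, the lowest value of any member in that fit). Cd5 and Cd6, scavenger-receptor family proteins that tune T cell receptor signals, and Cd27 and Cd28, receptors for co-stimulation, were near constant at 6.15 to 6.69. Cd5 and Cd6 did not overlap between the genotypes, with differences of 0.00025 and 0.00020 (exact permutation p = 0.0286 for each). Over all members 4 did not overlap, the other being the B cell gene Fcer2a with -0.00018, against 16.2% of all genes.

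Il7r encodes the receptor for interleukin 7, on which resting T cells depend for survival. It was at 7.24, 6.76, 6.95 and 7.32 in KO 1 to 4, against 7.19, 6.65, 6.51 and 6.36 in WT 1 to 4. This was the only varying member in which KO was higher in all 4 same-numbered pairs of arrays. The difference was 0.39 ± 0.22 (limma adjusted p = 0.352), and 0.19 in a second, dimmer probe set of the gene, which did not pass either. The remaining T cell members were near constant: the signalling adaptor Lat at 6.90, the kinase Zap70 at 8.21, the homing receptor Ccr7 at 6.07 and the transcription factor Lef1 at 6.85.

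Among B cell members only Bank1, a scaffold of B cell receptor signalling, varied. It was at 7.06, 6.82, 7.15 and 7.15 in KO 1 to 4, against 7.32, 7.02, 6.31 and 6.70 in WT 1 to 4. Here WT 1 was the highest array of all and WT 2 exceeded KO 2, so that the WT arrays surrounded the KO arrays. The difference was 0.21 ± 0.22 (limma adjusted p = 0.641), the smallest of the varying members, and KO was higher in 2 of 4 same-numbered pairs. The receptor chains Cd79a and Cd79b (6.24 and 6.34), the surface proteins Ms4a1, which is CD20, and Cd22 (6.25 and 7.05), the complement receptor Cr2 (6.50) and the IgE receptor Fcer2a (6.44) were near constant. So were the follicle-homing receptor Cxcr5 (6.04), the kinase Blk (6.44) and Pax5 (6.54), the transcription factor that fixes B cell identity.

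Ltb, a membrane cytokine of lymphocytes that organises lymph nodes, was near constant at 6.71. The cytotoxic genes, shared by killer T cells and natural killer cells, were read by 2 varying members, of which Nkg7 and not Gzma had the order of arrays seen in the T cell members. Nkg7, a granule protein, was at 7.46, 6.98, 7.17 and 7.73 in KO 1 to 4, against 7.73, 6.64, 6.59 and 6.67 in WT 1 to 4. WT 2 to 4 were close together below all other arrays, and the difference was 0.43 ± 0.31 (limma adjusted p = 0.477). Gzma, the protease granzyme A, was at 7.46, 6.42, 7.37 and 7.19 in KO 1 to 4, against 7.55, 6.19, 6.39 and 6.66 in WT 1 to 4. KO 2 lay below WT 4 there, and the difference was 0.41 ± 0.37 (limma adjusted p = 0.571).

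**Figure D2:**
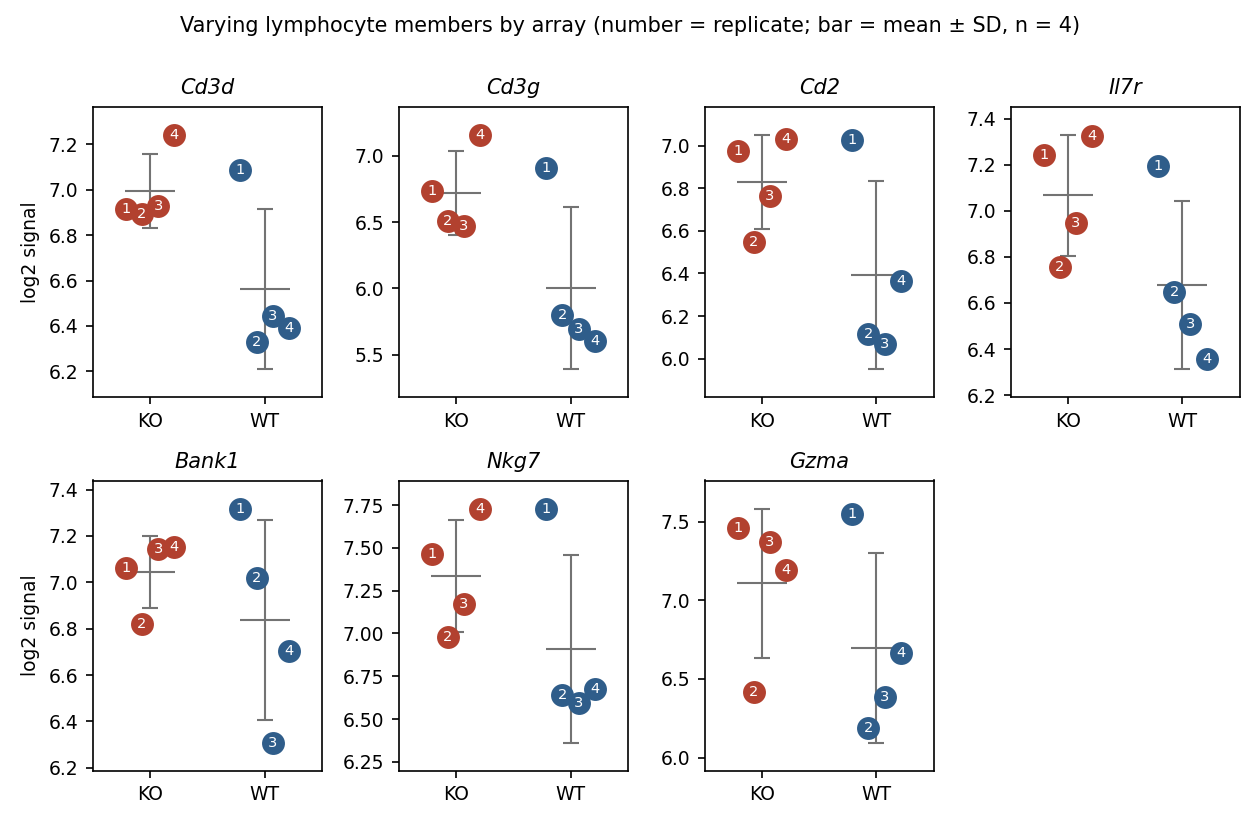
Log2 signal of the 7 varying members in each array, KO left and WT right in each panel, with replicate numbers inside the points and bars for mean ± SD (n = 4). WT 1 is the highest WT array in every panel, and in Cd3d, Cd3g, Cd2, Il7r and Nkg7 the WT arrays 2, 3 and 4 lie below all other arrays.

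In 5 of the 7 varying members, Cd3d, Cd3g, Cd2, Il7r and Nkg7, WT 2 to 4 lay below all 4 KO arrays and WT 1. This order was read from the members themselves, so its share of 10.5% among varying genes is no test of them. It was also found in 8 of 10 varying pan-leukocyte and 4 of 6 natural killer and cytotoxic genes. The same held for 3 of 5 MHC class II, 5 of 12 macrophage and 0 of 8 skeletal muscle genes. With WT 1 left out, the differences of Cd3d, Cd3g, Cd2, Il7r and Nkg7 were 0.61, 1.02, 0.65, 0.56 and 0.70. Over all genes 0 members passed limma without WT 1, where 1.17% of genes did. Among varying genes those 5 then passed as higher in KO (limma adjusted p = 0.0145, 0.0150, 0.0250, 0.0391 and 0.0332), where 22.2% of varying genes passed, 12.1% higher. Bank1, with a difference of 0.37 (0.137), and Gzma, with 0.70 (0.0836), did not pass. Leaving out any one of the other 7 arrays gave 0 passing members among varying genes. WT 1 was singled out after its values were seen, and leaving out the highest WT array lowers the WT mean of each of the 7.

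The T cell and B cell members were set side by side as list means per array, with no test, since the members were chosen with results known. The mean of the 4 varying T cell members was 6.97, 6.68, 6.78 and 7.19 in KO 1 to 4, against 7.05, 6.22, 6.18 and 6.18 in WT 1 to 4. Its difference was 0.49, while the single varying B cell member, Bank1, differed by 0.21. With one array left out, Bank1 differed by 0.03 (without WT 3) to 0.37 (without WT 1) and did not pass in either case. In replicate numbers 1 and 2 the differences were 0.18 for the T cell mean and -0.23 for Bank1, and in numbers 3 and 4 they were 0.80 and 0.64. Over all measured members, near-constant ones included, the difference was 0.12 for the T cell mean and 0.02 for the B cell mean. With 1 varying B cell gene, whether T cell and B cell genes differ in response could not be determined.

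Genes of all leukocytes showed a like order of arrays, with a lower WT 3. Ptprc, the pan-leukocyte phosphatase CD45, was at 9.35, 9.08, 9.07 and 9.46 in KO 1 to 4, against 9.48, 8.63, 7.87 and 8.38 in WT 1 to 4 (difference 0.65 ± 0.34, limma adjusted p = 0.318). Of 12 measured pan-leukocyte genes 10 varied, and their mean ran from 8.29 to 8.46 in KO and from 7.39 to 8.59 in WT. For 12 macrophage genes, all varying, the mean ran from 9.65 to 9.85 in KO and from 8.68 to 10.1 in WT. For the 5 varying MHC class II genes of 7 it ran from 9.64 to 10.2 in KO and from 8.70 to 10.3 in WT. In these 3 lists 0 genes passed limma, also among varying genes, with or without the replicate block. WT 1 was the highest WT array in 9 of the 10 pan-leukocyte, all 12 macrophage and all 5 MHC class II genes. Leaving it out therefore lowers their WT means. With WT 1 left out, 12.1% of varying genes passed limma among varying genes as higher in KO. Of the 10 varying pan-leukocyte genes 3 did: Ptprc (adjusted p = 0.0231), Cd48 (0.0302) and Rac2 (0.0379). So did 2 of the 12 macrophage genes, Cd163 (0.0255) and Adgre1 (0.0433), and 0 of the 5 MHC class II genes. WT 2 sat close to the mean of the 8 arrays in the pan-leukocyte (-0.07) and macrophage (0.06) lists, but as low as WT 3 and WT 4 in the T cell members (-0.43, against -0.48 in each). A low WT 2 was not particular to the T cell members. In WT 2, 3 and 4 the natural killer and cytotoxic genes were at -0.34, -0.33 and -0.27. The shared and cytotoxic members were at -0.60, -0.52 and -0.34. The part of total leukocyte content in the member differences was not tested. Skeletal muscle genes parted the arrays by replicate number instead, with list means of 9.04, 9.83, 6.54 and 7.17 in KO 1 to 4 and 9.33, 8.95, 6.64 and 7.02 in WT 1 to 4; their part in the results was not tested.

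**Figure D3:**
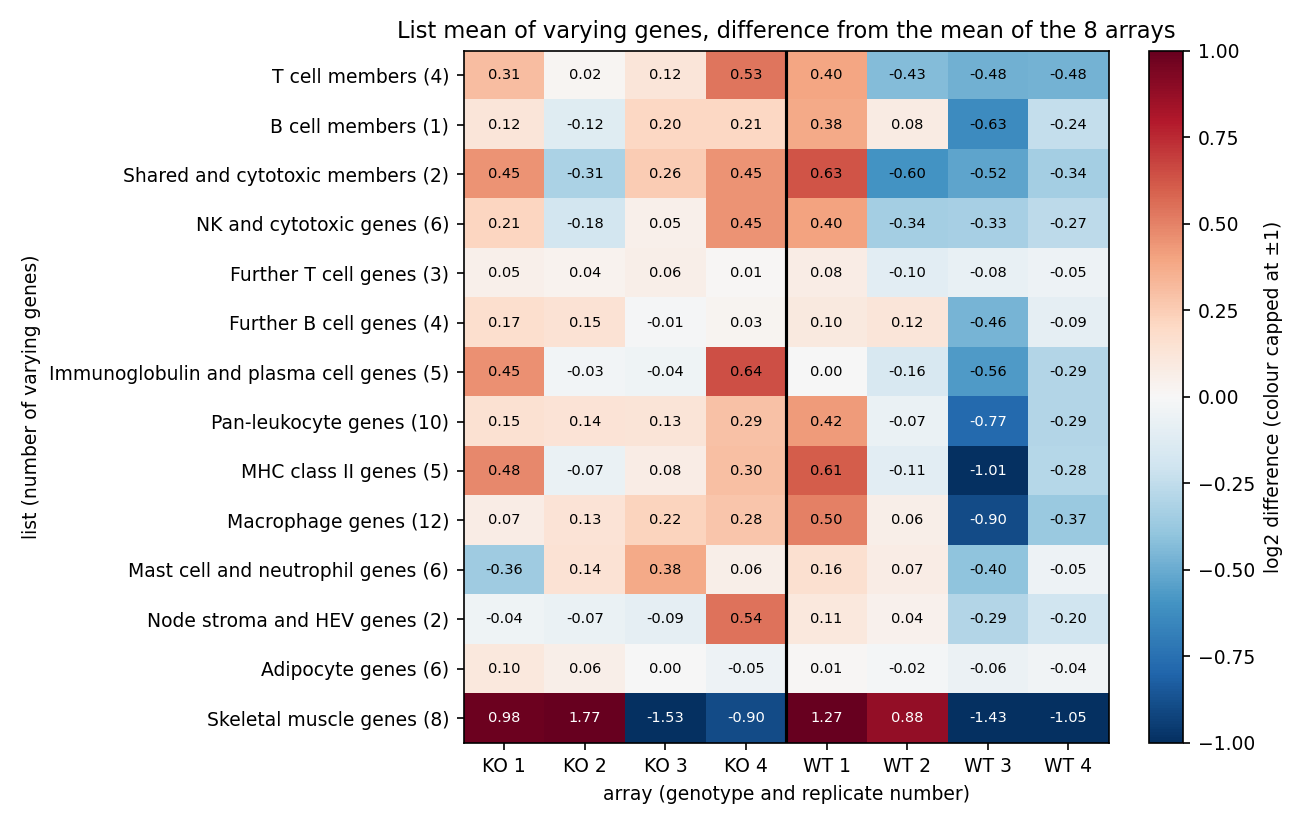
Mean log2 signal of the varying genes of each list (rows, with the number of varying genes) in each array (columns, KO left of WT), minus the mean over the 8 arrays; red is above and blue below, with colour capped at 1. WT 1 is above and WT 3 below the mean in the rows of T cell, B cell, cytotoxic, pan-leukocyte, MHC class II and macrophage genes, while skeletal muscle genes separate replicate numbers 1 and 2 from 3 and 4.

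The other lymphocyte lists differed in how many of their genes varied: 15.0% of further T cell genes, 25.0% of further B cell genes, 46.2% of natural killer and cytotoxic genes and 62.5% of immunoglobulin and plasma cell genes. Of 20 further measured T cell genes 3 varied and 0 passed. The 3 that varied are named here after their values were seen, and one was Thy1, a surface protein of T cells that stromal cells and nerves also carry. Thy1 was at 7.65, 7.39, 7.47 and 7.50 in KO 1 to 4, against 7.55, 7.15, 6.92 and 7.18 in WT 1 to 4 (difference 0.30 ± 0.14, limma adjusted p = 0.254). Dgka, a lipid kinase that damps T cell receptor signals, went the other way, by -0.12 ± 0.06 (limma adjusted p = 0.324). Satb1, a chromatin organiser of thymocytes, differed by 0.06 ± 0.08 (limma adjusted p = 0.751), less than its SE. Of 13 natural killer and cytotoxic genes 6 varied and 0 passed; all 6 were higher in KO on average and had WT 1 as the highest WT array. The natural killer receptor gene Klrd1 was at 7.26, 6.73, 7.12 and 7.57 in KO 1 to 4, against 7.35, 6.53, 6.52 and 6.62 in WT 1 to 4 (difference 0.42 ± 0.26, limma adjusted p = 0.398). Among varying genes without WT 1, where 12.1% passed as higher in KO, 1 of the 3 further T cell genes passed limma, Thy1 (adjusted p = 0.0263). So did 2 of the 6 natural killer and cytotoxic genes, Klrd1 (0.0485) and the chemokine gene Ccl5 (0.0385, difference 1.05), which was chosen after its values were seen. Of 16 further B cell genes 4 varied and 0 passed over all genes. Btk, a kinase of the B cell receptor that myeloid cells also use, differed by 0.31 ± 0.14 (limma adjusted p = 0.261). Among varying genes it passed only with the replicate block (0.0343, against 0.109 without it), where 10.3% passed as higher in KO. The others that varied, named after their values were seen, were Blnk, Ebf1 and Mef2c. They differed by 0.35, 0.02 and -0.02 (limma adjusted p = 0.436, 0.956 and 0.943).

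The immunoglobulin heavy chain gene did not follow the T cell order of arrays, whereas Jchain did. Ighm, the heavy chain of IgM, was at 10.08, 8.97, 8.30 and 10.88 in KO 1 to 4, against 8.54, 8.51, 7.55 and 8.22 in WT 1 to 4. KO 1 and KO 4 were far above all other arrays, KO 3 lay below WT 1 and WT 2, and WT 1 was level with WT 2. The difference was 1.35 ± 0.60 (limma adjusted p = 0.248). The Ighm probe set, 1 of 11 for the gene, can also bind related transcripts, by its suffix. Jchain, which joins IgM or IgA units in antibody-secreting cells, was at 8.01, 6.47, 7.24 and 8.45 in KO 1 to 4, against 7.08, 5.99, 6.22 and 6.43 in WT 1 to 4. WT 2 to 4 lay below all KO arrays and WT 1, as in the T cell members, and KO 1 and KO 4 were again highest. Its difference was 1.11 ± 0.48 (limma adjusted p = 0.237). Among varying genes Jchain passed only with the replicate block (0.0439, against 0.0857 without it), where 10.3% passed as higher in KO. The labels do not say what a replicate number shares. Sdc1, syndecan 1, a surface marker of plasma cells that epithelial cells also carry, went the other way: it averaged 7.80 ± 0.08 in KO and 8.01 ± 0.15 in WT (SD, n = 4 each), with every KO array below every WT array. It was the only varying gene of this list without overlap (difference -0.21 ± 0.08, exact permutation p = 0.0286, limma adjusted p = 0.191). The Sdc1 probe set, 1 of 4 for the gene, can also bind other transcripts, by its suffix. Of 8 measured genes of this list 5 varied and 0 passed over all genes.

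Markers of the lymph node itself were read as well. Near-constant values of such markers do not show whether node tissue was in the samples. Glycam1 and Madcam1, ligands for lymphocyte entry made by high endothelial venules, and Chst4, an enzyme that modifies such ligands, were near constant at 6.12, 6.57 and 6.22. These levels stood at percentiles 15.2, 42.2 and 21.3 of all probe sets. Ccl21a and Ccl19, the T zone chemokines, had no single-gene probe set and were not analysed here. Cxcl13, the B cell follicle chemokine, varied at 8.12, 8.73, 8.43 and 9.29 in KO 1 to 4, against 9.03, 9.10, 8.31 and 8.58 in WT 1 to 4. Its difference was -0.11 ± 0.30 (limma adjusted p = 0.868), KO 1 was its lowest array and WT 2 its second highest, unlike the T cell members. Ubd, a ubiquitin-like protein of lymphoid and inflamed tissue, was at 7.75, 7.08, 7.35 and 7.74 in KO 1 to 4, against 7.14, 6.93, 7.05 and 6.97 in WT 1 to 4 (difference 0.46 ± 0.16, limma adjusted p = 0.169). Of the 6 measured genes of the list 2 varied and 0 passed. The node markers Glycam1, Madcam1 and Chst4, the node chemokine receptors Ccr7 and Cxcr5 and the B cell genes Cd79a, Cd79b and Ms4a1 were all near constant in the deposited table. The part of lymph node tissue in the member differences was not tested.

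**Figure D4:**
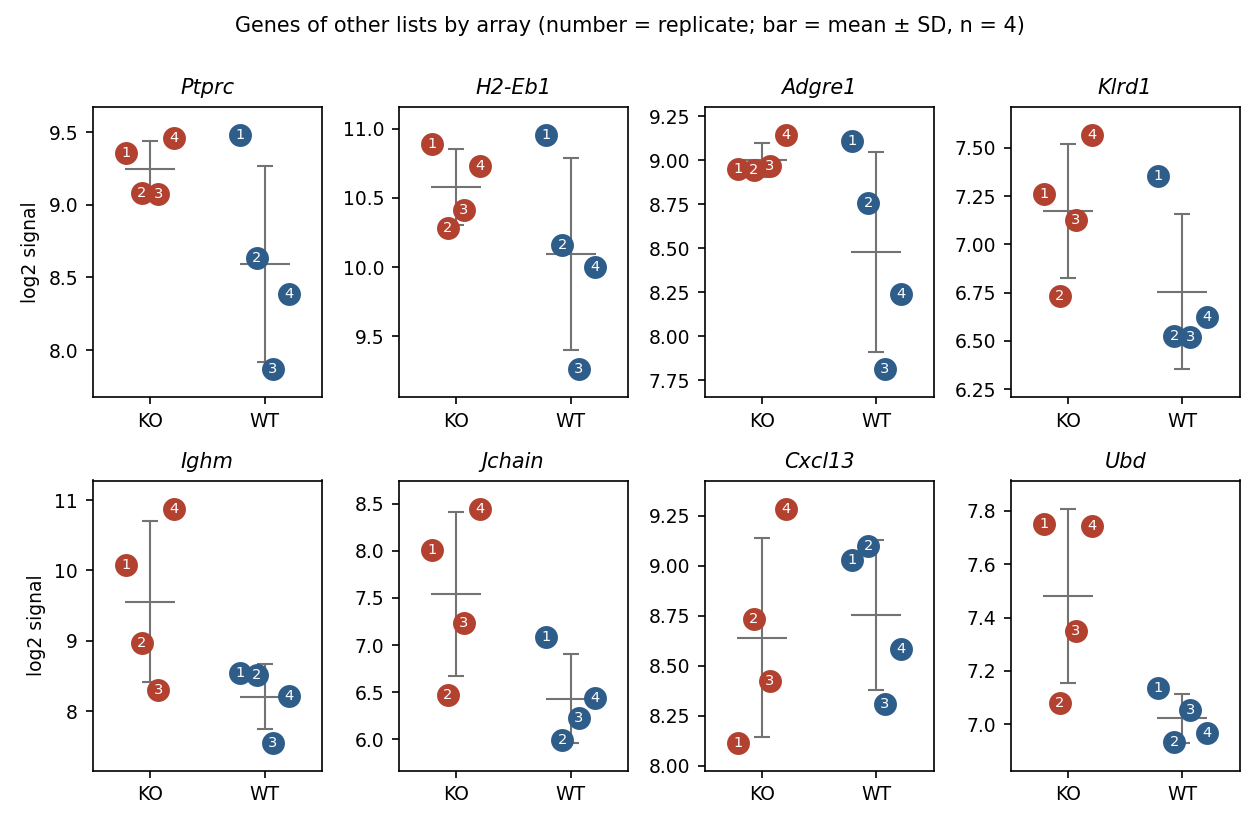
Log2 signal of 8 genes of other lists in each array, KO left and WT right in each panel, with replicate numbers inside the points and bars for mean ± SD (n = 4). Ptprc, H2-Eb1, Adgre1 and Klrd1 have WT 1 among the high arrays, Ighm and Jchain are highest in KO 1 and KO 4, and Cxcl13 shows no shift between the genotypes beyond its spread.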

How the data were processed

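Per the labels, total RNA of snap-frozen inguinal fat was amplified from 100 ng, biotinylated and read on a 3' expression array, 1 per mouse. The authors deposited log2 values of 45101 probe sets, 64 of them controls; the log2 scale was read from the values, which ran from 4.93 to 14.3. Per the submitters' processing notes R 2.14.0 was used; how background, normalisation and summarisation were handled is not given in the sources used here. Detection calls were not used, and the number of arrays limits the precision.

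The platform annotation gave 34945 single-gene probe sets. Control probe sets were left out, and the brightest probe set stood for a gene. The genotypes were compared in limma 3.58.1 in R 4.3.3 (lmFit and eBayes, two-sided, Benjamini-Hochberg over all 18193 genes, threshold 0.05), tested on simulated data. Two-sided exact permutation p values are given only for genes whose genotypes did not overlap. Every such gene has the smallest p of 4 against 4, 0.0286, so this p only restates the lack of overlap.

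Deviations of same-numbered KO and WT arrays from their genotype means correlated at 0.315, 0.486, 0.189 and 0.244, each above the limit of 0.1 for reading numbers as pairs. The labels do not say what a number shares, so the pairing rests on these values. Arrays of different number correlated as highly or more in places: KO 3 with WT 4 at 0.364, KO 4 with WT 3 at 0.266 and KO 2 with WT 1 at 0.220, so the values part numbers 1 and 2 from 3 and 4 rather than 3 from 4.

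The members and lists were chosen with earlier results of these data known. Every member is named; of each other list, up to 4 genes with the smallest p and a set of node, leukocyte and B cell markers could be named. Of 172 listed genes outside the members 153 were measured. Alternatives covered probe set choice, normalisation, gene filters, the variance model, replicate blocks and leaving out each array.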

Additional observations from a re-analysis of the deposited data

Results flagged for a closer look

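One array lay far from the other 3 of its genotype in 8 of 90 sets of values checked, where chance gives about 1 in 20. In 5 of them that array was WT 1 on the high side: Cd3d (7.08), Cd3g (6.91), Nkg7 (7.73), Klrd1 (7.35) and the mean of all measured T cell members (6.83). WT 1 was on the low side for the glucose transporter Slc2a4 (9.29), where the other WT arrays were nearly equal. KO 4 was far above the other KO arrays for Cd3d (7.24) and for the macrophage gene Adgre1 (9.14). The genes checked move together, so these are not independent cases.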

How the results depend on the processing

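All 7 varying members kept a positive difference in each of the 28 alternative settings run for them. Gene filters, the variance model and the balanced blocks cannot change a difference. Each array left out gave the same difference over all genes and among varying genes. The shared sign therefore rests on normalisation, the arrays left out and, for Il7r, probe set choice. The count of passing members was 0 in every setting except among varying genes without WT 1, chosen after seeing the data, where it was 5 (4 of them T cell members); over the arrays left out in turn it ranged from 0 to 5, and from 0 to 4 for T cell members. The number of genes passing over all genes was 733; it was 1402 among varying genes only, 0 with the replicate block, 1417 among varying genes with a block of numbers 1 and 2 against 3 and 4, and 10 to 253 with one array left out over all genes. The replicate block changed no member call. The T cell mean differed by 0.12 over all measured members, 0.49 over varying members only, and, over varying members, 0.47, 0.57, 0.54 and 0.40 without KO 1, 2, 3 and 4 and 0.71, 0.43, 0.42 and 0.42 without WT 1, 2, 3 and 4; averaging in near-constant members shrinks the first value. On varying members only, the B cell mean (Bank1 alone) differed by 0.21 and the T cell minus B cell mean by 0.29, against 0.02 and 0.10 over all measured members; with one array left out, the B cell mean over all measured members ran from 0.0031 (without WT 3) to 0.037 (without WT 1). Probe set choice, normalisation between arrays and the variance model changed no member call. Leaving out dim genes kept 2 members, both near constant and neither passing, so this setting did not test the 7 varying members. Dim levels and near-constant values limit what these arrays can show for 22 of the 29 members.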

Other observations

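Beside the lymphocyte genes, a pair of stromal and vessel genes of the other lists had KO values that all lay below the WT values. Of all varying genes 33.2% did not overlap, in either direction, and 12.2% passed as lower in KO when tested without the block. Cxcl12, a chemokine that holds lymphocytes and other leukocytes in tissue, ran from 9.82 to 10.28 over the 4 KO arrays and from 10.32 to 10.71 over the 4 WT arrays. It did not pass limma over all genes (difference -0.51, adjusted p = 0.0767) but fell when varying genes alone were tested (0.0196, and 0.0318 with the replicate block). Reln, a matrix protein of lymphatic vessels, averaged 6.76 ± 0.24 in KO and 7.54 ± 0.35 in WT (SD, n = 4 each; difference -0.78, limma adjusted p = 0.0904). It, too, fell in the test of varying genes (0.0226, and 0.0286 with the block). Both kept their call among varying genes without WT 1 (0.0248 and 0.0301), where 22.2% of varying genes passed. Reln was 1 of 3 varying genes among 6 measured genes of lymphatic endothelium, and the varying genes did not move alike. Lyve1 was higher in KO (difference 0.43, limma adjusted p = 0.599). Pdpn, named after its values were seen, differed by -0.006 (limma adjusted p = 0.988).

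Tnfsf13b, the B cell survival factor BAFF, was also free of overlap, at 7.06 ± 0.04 in KO and 6.95 ± 0.09 in WT (SD, n = 4 each), but did not pass over all genes (limma adjusted p = 0.244) or among varying genes (0.163). Cpa3, a mast cell protease, was highest in KO 3, at 8.02, 8.76, 9.27 and 8.44 in KO 1 to 4 and 8.59, 8.51, 7.78 and 8.06 in WT 1 to 4 (difference 0.39, limma adjusted p = 0.527).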
